A study of Mus musculus with 9 samples.

Results

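The proteasome genes of sorted mouse proximal tubular cells were examined. They were taken by symbol: every row of the deposited table whose name is Psma, Psmb, Psmc, Psmd, Psme or Psmg followed by a digit, apart from the immunoproteasome subunits Psmb8, Psmb9 and Psmb10. The rule found 46 genes among 24421 rows. By role, 14 of them encode the core (7 alpha and 7 beta subunits), 17 the regulatory cap (6 ATPases and 11 non-ATPase subunits), 4 alternative activators and 7 assembly factors. A further 2 encode core subunits restricted to testis or thymus, and 2 share the name pattern only. RNA came from 9 mice, 3 in each of 3 groups. All mice were C57BL/6, carried a tamoxifen-inducible Cre in the Slc34a1 locus and the R26tdTomato reporter, and received tamoxifen at 8 weeks of age. The reporter therefore marks cells in which the Slc34a1 locus, active in proximal tubules, had driven Cre. *db/m* mice were heterozygous for the leptin receptor mutation and served as non-diabetic controls. *db/db* mice were homozygous for it, which makes them obese and diabetic, and received vehicle. *db/db*-dapa mice had the same genotype and drank dapagliflozin, an inhibitor of the glucose transporter SGLT2, for 8 weeks at 1.5 mg/kg each day. Kidney is the tissue named in the labels, and the study's methods describe sorted live tdTomato-positive cells from the cortex, with 1 mouse per library.

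The proteasome degrades proteins that carry ubiquitin chains. Its core is a barrel of stacked rings: the outer alpha rings form the gate, and the inner beta rings hold the catalytic sites. The cap binds ubiquitinated proteins, removes the chain and unfolds the protein with a ring of ATPases, which thread it into the core. Assembly factors hold the subunits in order while the rings are built and leave afterwards. Subunits are needed in fixed proportions, and the transcription factor encoded by Nfe2l1 raises proteasome genes together through antioxidant response elements when proteasome activity falls short. Proximal tubular cells take up large amounts of filtered protein, most of which goes to lysosomes rather than to the proteasome.

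Because the genes form 1 regulated group, the bases before their starts were searched for 2 motifs, taking RefSeq promoters of GRCm38.p6, which were at hand for 38 of the 46 genes. The core of the antioxidant response element was written as TGACNNNGC and read on both strands. It was found in the 250 bases before the start of 5 of the 38 genes (13.2%), against 11.5% of 27025 genes. The CCAAT box, read as CCAAT on both strands, was found in 14 of the 38 (36.8%), against 37.5% of all genes. Neither share was far from that of all genes. The stretches with the first motif are shown, since they cover the core, the cap and an assembly factor. Each is 5′ to 3′ on the strand of its gene, with the match in capitals. They lie at chr14:54618008-54618067 on the minus strand (Psmb5) and, on the plus strand, at chr11:70525323-70525356 (Psmb6), chr14:45329574-45329631 (Psmc6), chr11:107479278-107479315 (Psmd12) and chr5:123228134-123228189 (Psmd9).
Psmb5: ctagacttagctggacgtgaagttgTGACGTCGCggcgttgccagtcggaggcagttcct
Psmb6: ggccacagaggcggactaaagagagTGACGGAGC
Psmc6: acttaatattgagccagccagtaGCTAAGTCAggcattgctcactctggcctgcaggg
Psmd12: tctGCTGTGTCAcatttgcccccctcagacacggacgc
Psmd9: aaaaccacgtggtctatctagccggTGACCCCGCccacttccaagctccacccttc
The match ends 39 bases before the start in Psmb5, directly before it in Psmb6 and 23 bases before it in Psmd9. In Psmc6 and Psmd12 it lies on the opposite strand, more than 200 bases before the start. Psmb5 and Psmb6 encode catalytic beta subunits, Psmc6 an ATPase, Psmd12 a lid subunit of the cap and Psmd9 a chaperone of the ATPase ring.

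Libraries held between 2733349 and 9033123 estimated counts, the smallest being that of *db/db* mouse 1. Levels are given as CPM, counts scaled to a common library size with the trimmed mean of M-values (TMM), and in the order of mice 1, 2 and 3. All 10 proximal tubule markers were present. Their summed level was 13575 to 14705 CPM in *db/m*, 17146 to 20588 in *db/db* and 18429 to 22705 in *db/db*-dapa mice. By this sum both *db/db* groups lay above *db/m*. In *db/db* against *db/m* mice, Slc22a6 and Aqp1 had log2 fold changes of -0.31 and -0.11. The rest were above 0, up to 0.79 for Slc5a12. The 5 immune markers summed to 189 to 440, 104 to 323 and 82.6 to 294 CPM, which overlapped, with Cd3e at a count of 0 in 4 mice. Most of this sum was Cd74, at means of 293, 199 and 152 CPM. The other 4 had log2 fold changes above 0 in *db/db* against *db/m* mice, from 0.09 for Cd3e to 1.08 for Ptprc. Thick limb and distal tubule markers summed to 1233, 1001 and 2237 CPM in *db/m*, 1550, 724 and 819 in *db/db* and 825, 725 and 804 in *db/db*-dapa mice, so that treated mice lay below all *db/m* mice, as most proteasome genes did. Among them Umod was at -1.20 in untreated and -1.55 in treated *db/db* mice on the log2 scale against *db/m*. The others were nearer to 0 or above it: Slc12a3 at -0.31 and -0.55, Slc12a1 at 0.28 and -0.21 and Calb1 at 0.56 and -0.04. Collecting duct markers summed to 160 to 523, 190 to 349 and 116 to 199 CPM. Summed podocyte markers stood apart in *db/db*-dapa mouse 1 (214 CPM) and red cell markers in *db/db* mouse 2 (928 CPM). In bulk RNA of sorted cells, a different mix of cells and a different RNA content per cell cannot be told apart, and the part of these marker differences in the values of the proteasome genes was not tested.

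The 42 genes that every cell uses were well measured. Together they took 0.508, 0.486 and 0.531% of all counts in the *db/m* mice, 0.417, 0.462 and 0.393% in the *db/db* mice and 0.447, 0.422 and 0.401% in the *db/db*-dapa mice. Every *db/m* mouse lay above every mouse of the other groups, which overlapped each other. Divided by transcript length, levels followed the roles of the genes. The median level over 9 mice was 154 CPM per kb for the beta subunits, 89.5 for the ATPases, 81.8 for the alpha subunits, 55.4 for the non-ATPase cap subunits, 41.4 for the activators and 18.1 for the assembly factors. Psma4, a subunit of the alpha ring, was highest at 189 ± 33.3 CPM per kb (SD, n = 9), ahead of the catalytic Psmb6 at 173 ± 49.4, a gap smaller than either SD. Psma2 was the lowest core gene at 46.0 ± 7.90. The cap ran from the ATPase Psmc3 at 111 ± 23.6 to the lid subunit Psmd11 at 21.9 ± 3.79. Among assembly factors, Psmg1 was highest at 30.0 ± 9.53 and Psmd5 lowest at 10.6 ± 2.01, so no assembly factor exceeded the median of the alpha, beta or cap subunits.

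**Figure D1:**
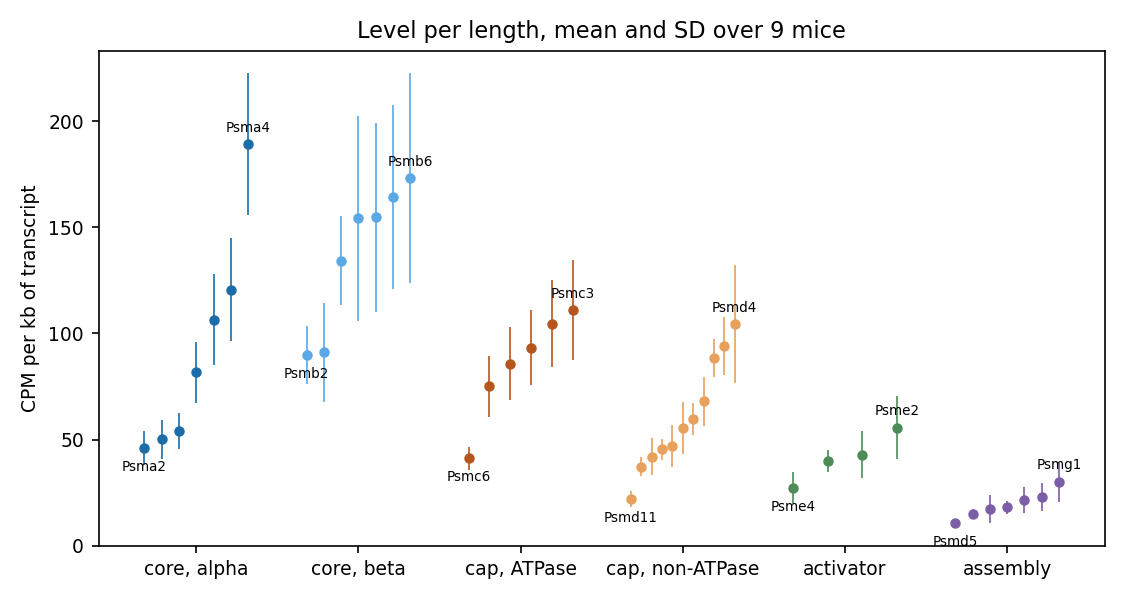
Level of each of the 42 genes in CPM per kb of transcript, by class. Points are means and lines SDs over 9 mice, and the highest and lowest gene of a class are named. Beta subunits center on 154 CPM per kb and assembly factors on 18.1.

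First, the effect of the diabetic genotype was examined by comparing *db/db* with *db/m* mice. Most proteasome genes were at a lower level in *db/db* mice, the 42 genes that every cell uses by log2 fold changes between -0.67 and -0.04, and no single gene passed the test. Of 45 genes with enough counts to be tested, 44 had a log2 fold change below 0, against 48.4% of all 15583 genes tested, and the only exception was Psme2b, a near-copy of Psme2 with at most 5 counts in any mouse. These counts take Psmb11 and Psme2b by the sign of a fit to very few counts. The median log2 fold change was -0.38 over the 45 genes, -0.39 over the 42 and 0.02 over all genes. The medians of core and cap were -0.42 and -0.38, while the assembly factors were at -0.23 and the activators at -0.16. This order depended on transcript length. With the trend on length described below removed, the medians were -0.26, -0.26, -0.30 and -0.18, and the assembly factors were lowest. With edgeR's quasi-likelihood test, Benjamini-Hochberg adjustment and a threshold of 0.1 with an absolute log2 fold change over 1, 0 of 45 were called, against 1.24% of all genes, and 0 passed the adjusted p alone (1.67% of all genes). DESeq2, limma on log2(CPM + 1) and limma-voom with a weight per mouse also called 0 members, and 363, 200 and 262 of all genes. At an unadjusted p under 0.05 in edgeR there were 16 genes, all lower (6.21% of all genes). With 1 mouse left out, that number ran from 5 (without *db/m* mouse 3 or *db/db* mouse 1) to 26 (without *db/db* mouse 2). The share of all genes at that p was not computed for these fits. At an adjusted p under 0.1 it was 0.924, 1.59 and 0.809% in the same order, against 1.67% with all mice. In 15 genes all *db/db* mice lay below all *db/m* mice (8.13% of all genes).

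Next, *db/db*-dapa mice were compared with *db/m* mice, to ask how treated diabetic mice stood against the non-diabetic controls. Here class medians differed more. All 14 core genes lay lower in every *db/db*-dapa mouse than in any *db/m* mouse. The same held for 4 of the 11 non-ATPase cap subunits, of which 9 had a log2 fold change below 0. Median log2 fold changes were -0.59 for the beta subunits, -0.44 for the ATPases, -0.38 for the alpha subunits, -0.37 for the assembly factors, -0.20 for the activators and -0.14 for the non-ATPase cap subunits. That of the assembly factors ran from -0.53 (without *db/db*-dapa mouse 1) to -0.16 (without *db/db*-dapa mouse 2) when 1 mouse was left out. With the trend on transcript length described below removed, the medians were -0.26, -0.26, -0.16, -0.00015, -0.08 and -0.02 in the same order. The median over all 45 genes was -0.38, against -0.02 over all genes tested. Again 0 of 45 were called by edgeR, against 1.05% of all genes, and 0 passed the adjusted p alone (1.31%), with 17 genes at an unadjusted p under 0.05, all lower (8.39% of all genes). Leaving out 1 mouse, that number ran from 2 (without *db/db*-dapa mouse 3) and 5 (without *db/db*-dapa mouse 2) to 24 (without *db/db* mouse 3), and it was 6 without *db/m* mouse 3. The share of all genes at that p was not computed for these fits. At an adjusted p under 0.1 it was 0.263, 0.0898, 10.6 and 0.359% in the same order, against 1.31% with all mice. DESeq2 and limma on log2(CPM + 1) called 0 members, and limma-voom with a weight per mouse called 2. Of all genes, these methods called 507, 146 and 1619. A total of 28 genes did not overlap between the groups, all of them lower (13.7% of all genes): 14 of the core, 9 of the cap, 3 assembly factors and 2 activators. In 38 of 45 genes the log2 fold change was below 0 (51.5% of all genes). The 7 above 0 were the cap subunits Psmd1 and Psmd11, the chaperones Psmd5 and Psmd9, the activators Psme3 and Psme4, and Psme2b.

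**Figure D2:**
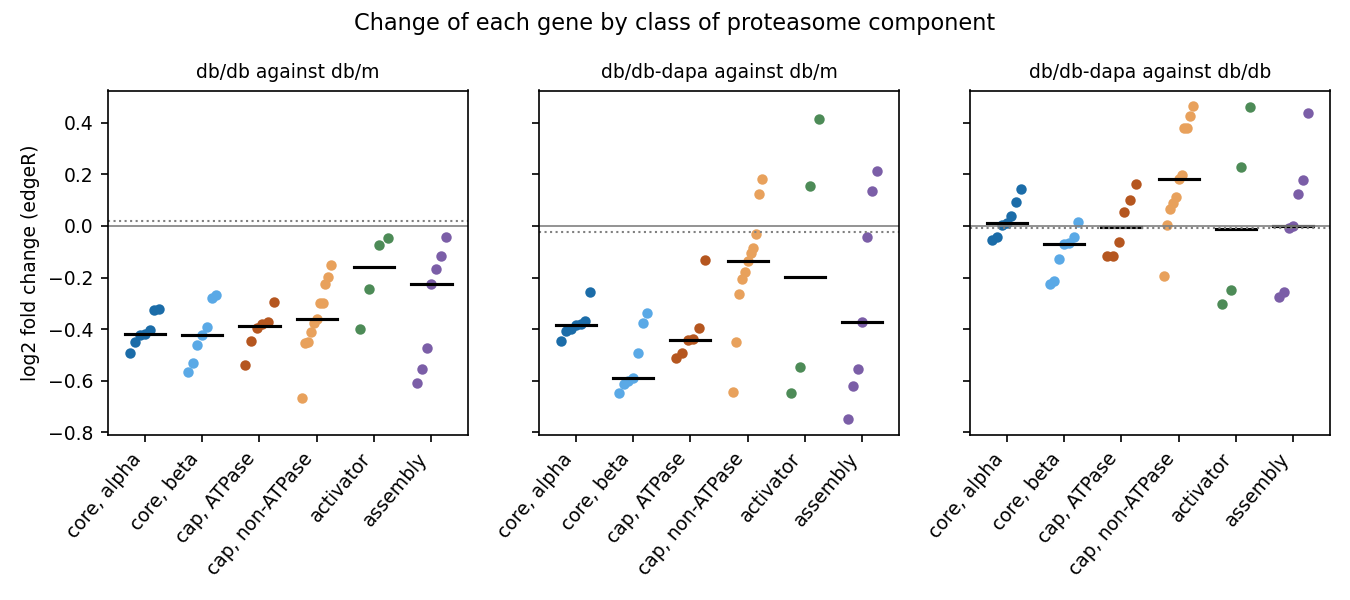
Log2 fold change (edgeR) of each of the 42 genes in each comparison, by class. Each point is a gene, the black bar is the class median and the dotted line the median of all 15583 genes tested. All genes lie below 0 in *db/db* against *db/m* mice, and the non-ATPase cap subunits center on 0.18 in treated against untreated *db/db* mice.

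The effect of dapagliflozin itself was examined by comparing treated with untreated *db/db* mice. Proteasome genes as a whole had a median log2 fold change of 0.01, against -0.01 over all genes, and 26 of 45 were above 0 (48.7% of all genes). The non-ATPase cap subunits were the class furthest from 0, with 10 of 11 genes higher in *db/db*-dapa mice and a median of 0.18, while the core was at -0.04, the ATPases at -0.0041, the activators at -0.01 and the assembly factors at 0.00. With the trend on transcript length described below removed, all class medians were above 0. They were 0.22 for the non-ATPase cap subunits, 0.11 for alpha and 0.06 for beta subunits, 0.05 for ATPases, 0.06 for activators and 0.10 for assembly factors. No member was called by edgeR (0 of 45), nor was any of the 15583 genes (0%). DESeq2 and both forms of limma also called 0 members, but not all of them called 0 genes. Of all genes, DESeq2 called 13, limma on log2(CPM + 1) 0 and limma-voom with a weight per mouse 449. At an unadjusted p under 0.05 there were 2, Psmd5 and Psmd7, both higher (1.91% of all genes). Leaving out 1 mouse, this number ran from 0 (without *db/db* mouse 1 or 2, or *db/db*-dapa mouse 2) to 8 (without *db/db* mouse 3). The share of all genes at that p was not computed for these fits. At an adjusted p under 0.1 it was 0, 0, 0.00642 and 2.69% in the same order, against 0% with all mice. In 4 genes all *db/db*-dapa mice lay above all *db/db* mice (4.90% of all genes): Psmd2, Psmd7, Psmd8 and Psmd14, all of the non-ATPase cap. The comparisons share mice, so values of 1 gene in several of them are not independent. For any gene whose groups did not overlap, the exact two-sided permutation test gave p = 0.1, the smallest it can give with 3 against 3 mice.

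Among the alpha subunits, which form the gate, differences were of similar size. Psma1 (chr7:114264606-114276118, minus strand) was at 117, 123 and 118 CPM in *db/m*, 77.2, 96.0 and 81.1 in *db/db* and 98.5, 87.4 and 85.7 in *db/db*-dapa mice. Both *db/db* groups lay below *db/m* and overlapped each other. Its log2 fold change was -0.49 ± 0.16 (SE) in *db/db* against *db/m* mice, the lowest of the alpha subunits, with an adjusted p of 0.196 in edgeR's quasi-likelihood test. Psma2 had the smallest difference there, at 160, 142 and 167 CPM in *db/m* and 123, 153 and 98.5 in *db/db* mice, and the groups overlapped (log2 fold change -0.32 ± 0.18). In *db/db*-dapa against *db/m* mice, log2 fold changes ran from -0.45 ± 0.17 for Psma6 to -0.26 ± 0.17 for Psma5. The separation in Psma5 was slight: the highest *db/db*-dapa mouse and the lowest *db/m* mouse were both at 71.3 CPM. Between treated and untreated *db/db* mice, the alpha subunits ranged from -0.06 ± 0.18 (Psma2) to 0.14 ± 0.17 (Psma5), within their errors.

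The beta subunits had the lowest class median in *db/db*-dapa against *db/m* mice. Psmb4 (chr3:94884093-94886961, minus strand), a non-catalytic subunit, was at 246, 211 and 294 CPM in *db/m*, 176, 201 and 130.0 in *db/db* and 184, 163 and 144 in *db/db*-dapa mice. Again both *db/db* groups lay below *db/m*. Its log2 fold change was -0.57 ± 0.21 in untreated and -0.61 ± 0.20 in treated *db/db* mice against *db/m* (adjusted p = 0.251 and 0.197, edgeR). Psmb3, also non-catalytic, was at 154, 113 and 180.3 CPM in *db/m* and 109, 93.3 and 83.1 in *db/db*-dapa mice, which did not overlap. Its log2 fold change of -0.65 ± 0.24 was the lowest of the core in that comparison (adjusted p = 0.217, edgeR), and it was also the lowest beta subunit against *db/db* mice, at -0.22 ± 0.24, where the groups overlapped. Psmb2 differed least from *db/m*, by -0.27 ± 0.17 without and -0.34 ± 0.17 with dapagliflozin. The 3 catalytic subunits followed the class. Psmb5, the chymotrypsin-like subunit, was at 160.3, 134 and 237 CPM in *db/m*, 109, 163 and 94.7 in *db/db* and 126, 118 and 106 in *db/db*-dapa mice. The *db/db* mice spanned part of the *db/m* range, and the *db/db*-dapa mice lay below it, at log2 fold changes of -0.53 ± 0.25 and -0.60 ± 0.25. Psmb6, the caspase-like subunit, differed by -0.28 ± 0.27 and -0.49 ± 0.27, and Psmb7, the trypsin-like subunit, by -0.39 ± 0.16 and -0.38 ± 0.16. Psmb7 was the highest beta subunit in treated against untreated *db/db* mice, at 0.01 ± 0.16.

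In the cap, the medians of the ATPases were near those of the core against *db/m* mice. Psmc1 (chr12:100110154-100123405, plus strand) was at 165, 149 and 192 CPM in *db/m*, 111, 118 and 119 in *db/db* and 126, 130.4 and 117 in *db/db*-dapa mice. The *db/db* mice were close together and well below *db/m*, at 0.687 times its level. Its log2 fold change was -0.54 ± 0.16 (adjusted p = 0.166, edgeR), the second lowest p among the members, and -0.44 ± 0.16 in *db/db*-dapa against *db/m* mice. Psmc3 was the lowest ATPase in the latter comparison at -0.51 ± 0.18, and Psmc4, at -0.49 ± 0.17, had the third lowest p of all members there (adjusted p = 0.208, edgeR). Psmc6 stood nearest to *db/m* in both, at -0.29 ± 0.17 and -0.13 ± 0.17. Against *db/db* mice, treated mice were at -0.12 ± 0.17 for Psmc4 and 0.16 ± 0.17 for Psmc6, the ends of this class.

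Among the non-ATPase cap subunits, Psmd7 (chr8:107580381-107588464, minus strand), the lid partner of the deubiquitinase Psmd14, had the lowest p of all members between *db/db* and *db/m* mice. It was at 106, 104 and 106 CPM in *db/m*, 52.7, 65.4 and 79.8 in *db/db* and 97.5, 96.1 and 80.8 in *db/db*-dapa mice. The 3 groups did not overlap, with *db/db* lowest and *db/db*-dapa between. The gap between the *db/db* groups was slight, from 79.8 CPM in *db/db* mouse 3 to 80.8 in *db/db*-dapa mouse 3. Levels in *db/db* mice were 0.629 times those in *db/m* mice, a log2 fold change of -0.67 ± 0.18 (adjusted p = 0.130, edgeR). Against *db/db* mice, *db/db*-dapa mice were at 1.38 times the level, a log2 fold change of 0.46 ± 0.18 with an unadjusted p of 0.0244 and an adjusted p of 0.854 (edgeR). Psmd14, which cuts the ubiquitin chain off the substrate, showed the same order at a smaller size. It was at 63.8, 63.0 and 66.8 CPM in *db/m*, 45.5, 48.6 and 56.2 in *db/db* and 57.3, 57.5 and 56.3 in *db/db*-dapa mice, and the nearest *db/db* and *db/db*-dapa mice all but touched. No other member had 3 groups free of overlap, and this pattern was picked out after the values had been seen. Psmd7 is named for its low p and Psmd14 for its function.

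Psmd2, a scaffold of the cap that binds ubiquitin-like domains, was at 235, 243 and 186 CPM in *db/m*, 139, 161 and 198 in *db/db* and 213, 229 and 207 in *db/db*-dapa mice. Treated mice lay within the *db/m* range and above every *db/db* mouse. The log2 fold change against *db/db* mice was 0.38 ± 0.18 (unadjusted p = 0.0595, edgeR) and that against *db/m* mice -0.03 ± 0.18. Psmd11, which joins the lid to the core, was the highest of its class against *db/m* mice, at 0.18 ± 0.19, and Psmd3 differed least between *db/db* and *db/m* mice, at -0.15 ± 0.16. Psmd4 (chr3:95032694-95042614, minus strand), a receptor for ubiquitin chains, was below *db/m* like most of its class but differed from the rest in treated against untreated *db/db* mice. It was at 163, 149 and 216 CPM in *db/m*, 143, 147 and 96.7 in *db/db* and 125, 111 and 101 in *db/db*-dapa mice. Both *db/db* groups lay below *db/m* and overlapped each other. The log2 fold change of -0.65 ± 0.21 between treated and *db/m* mice had the lowest p of all members there (adjusted p = 0.189, edgeR), and it was the only non-ATPase subunit lower than in *db/db* mice, at -0.19 ± 0.21.

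**Figure D3:**
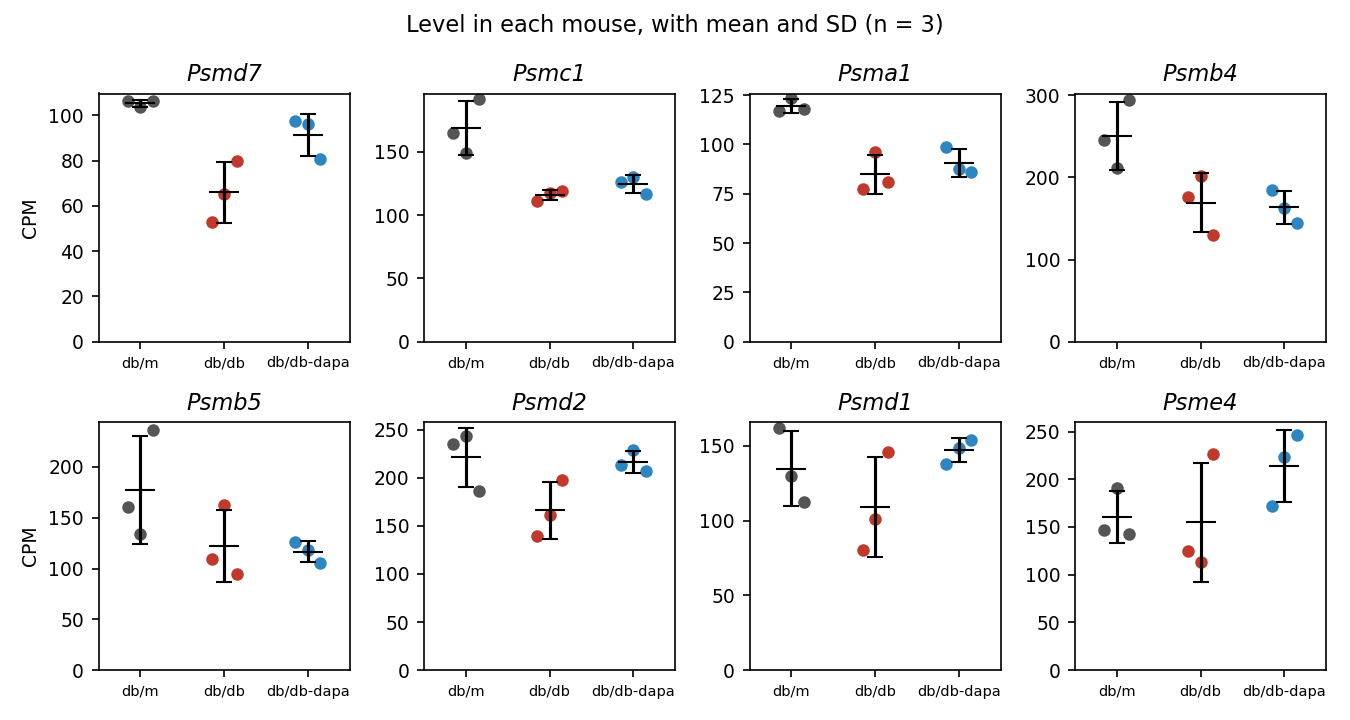
Level of 8 genes in CPM in each mouse, with mean and SD (n = 3 per group) and axes from 0. For Psmd7 the 3 groups do not overlap, and for Psmb4 both *db/db* groups lie below *db/m*. Psmd1 and Psme4 are shown for the wide spread among the *db/db* mice.

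The activators dock on the core in place of the cap and split into pairs. Psme1 and Psme2 encode the interferon-inducible ring that favors peptides for antigen presentation. Psme2 was at 71.2, 55.8 and 73.7 CPM in *db/m*, 59.8, 58.6 and 34.6 in *db/db* and 50.4, 38.1 and 39.6 in *db/db*-dapa mice. Treated mice lay below all *db/m* mice, while *db/db* mice overlapped both groups. Its log2 fold change was -0.40 ± 0.23 in untreated and -0.65 ± 0.23 in treated *db/db* mice against *db/m* (adjusted p = 0.477 and 0.208, edgeR). Psme1 was the lowest activator against *db/db* mice, at -0.30 ± 0.26. Psme3 and Psme4 encode nuclear activators. Psme4 was at 147, 191 and 143 CPM in *db/m*, 125, 114 and 226 in *db/db* and 172, 224 and 246 in *db/db*-dapa mice. All groups overlapped, and *db/db* mouse 3 was nearly 2 times as high as its group mates. Its log2 fold changes were -0.05 ± 0.26 in untreated and 0.42 ± 0.26 in treated *db/db* mice against *db/m*, and 0.46 ± 0.26 between them, none of which passed the test.

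Assembly factors were the weakest expressed class, and 5 of 7 had a log2 fold change below 0 in *db/db*-dapa against *db/m* mice. Groups were free of overlap there in Psmg1, Psmg2 and Psmg3 only (13.7% of all genes were lower without overlap). Psmg4 at -0.37 ± 0.34 and Psmd10 at -0.04 ± 0.21 overlapped. With the trend on transcript length removed, the class median was -0.00015. Psmg1 to Psmg4 pair up to build the alpha ring. Psmg2 was at 26.9, 26.2 and 35.7 CPM in *db/m*, 16.3, 23.6 and 17.9 in *db/db* and 21.2, 14.6 and 21.9 in *db/db*-dapa mice, so that *db/m* mice lay above both other groups. It was the lowest assembly factor in *db/db* against *db/m* mice, at -0.61 ± 0.23 (adjusted p = 0.269, edgeR). Psmg3 was lowest in both other comparisons. Its levels were 17.5, 14.8 and 27.3 CPM in *db/m*, 20.1, 15.2 and 8.46 in *db/db* and 12.8, 13.5 and 9.05 in *db/db*-dapa mice, a log2 fold change of -0.75 ± 0.33 between the last and *db/m* (adjusted p = 0.267, edgeR). The *db/db* mice overlapped both groups. Psmd5, Psmd9 and Psmd10 are chaperones of the ATPase ring. Psmd5 was at 49.6, 47.3 and 42.4 CPM in *db/m*, 33.0, 33.8 and 51.5 in *db/db* and 47.0, 56.7 and 57.7 in *db/db*-dapa mice, with *db/db* mouse 3 apart from its group mates. It was the highest assembly factor in both comparisons of treated mice, at 0.21 ± 0.20 against *db/m* and 0.44 ± 0.20 against *db/db* mice (unadjusted p = 0.0494, adjusted p = 0.854, edgeR). Psmd9 was the nearest to 0 in *db/db* against *db/m* mice, at -0.04 ± 0.21.

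The mice of a group did not move all classes together. Averaged as log2(CPM + 1), the core stood above the cap by 0.19, 0.09 and 0.34 in the *db/m* mice, by 0.23 and 0.37 in *db/db* mice 1 and 2, and below it by -0.11 in *db/db* mouse 3. In the *db/db*-dapa mice the difference was 0.10, -0.06 and -0.01. Means were 0.21 ± 0.13, 0.16 ± 0.24 and 0.01 ± 0.08 (SD, n = 3 each), and the *db/db* group spanned both other groups. Thus *db/db* mouse 2 was nearest to *db/m* for most core genes and *db/db* mouse 3 furthest, while for Psmd1, Psmd7, Psmd5 and Psme4 mouse 3 was the highest of the *db/db* mice. The cap was the steadier class: its average was 7.05 ± 0.05 in *db/m*, 6.68 ± 0.10 in untreated and 6.81 ± 0.05 in treated *db/db* mice (SD, n = 3 each). No mouse of either *db/db* group reached the *db/m* range.

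**Figure D4:**
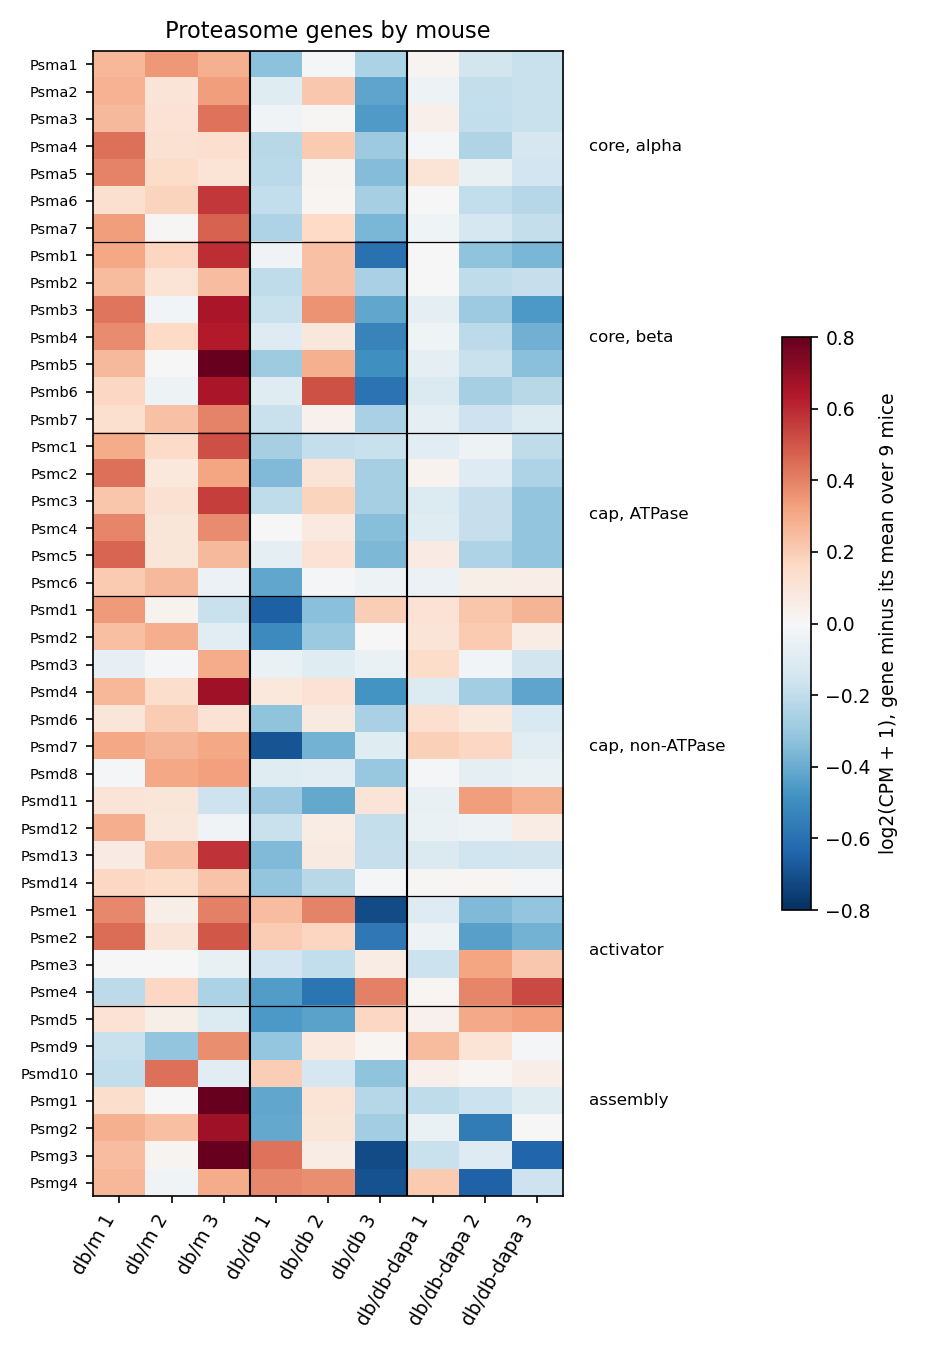
Each of the 42 genes in each mouse, as log2(CPM + 1) minus the mean of the gene over 9 mice, with colors ending at 0.8 on either side. Most core and ATPase genes are above their mean in *db/m* mice. They are mostly below it in the other groups, except in *db/db* mouse 2, where many lie above it. In *db/db* mouse 3 the core differs from the genes Psmd1, Psmd11, Psmd5 and Psme4.

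Transcript length moved with these differences. Over 15417 genes, Spearman's rho between transcript length and log2 fold change was 0.30 for untreated and 0.38 for treated *db/db* mice against *db/m*, and 0.16 in treated against untreated *db/db* mice, as a description across genes that share the same libraries. Short transcripts were lower: over the 5140 genes with transcripts of up to 2.115 kb, the median log2 fold change was -0.17, -0.29 and -0.11. Proteasome transcripts are short, and 31 of the 42 are among these. Their medians there were -0.40, -0.44 and -0.01, further from 0 than the medians of all short genes in the first 2 comparisons and nearer to 0 in the last, a difference that was not tested. Over the 42 genes rho was 0.33, 0.66 and 0.69. Beta subunits had a median length of 0.899 kb and non-ATPase cap subunits of 1.904 kb, and Psme4 (6.491 kb) and Psmd5 (4.397 kb), the longest, were the highest activator and assembly factor in *db/db*-dapa mice. By mouse, rho between length and the deviation of a gene from its mean was -0.32, -0.08 and -0.38 in *db/m*, -0.10, -0.21 and 0.45 in *db/db* and 0.00, 0.33 and 0.35 in *db/db*-dapa mice, so *db/db* mouse 3 stood apart from its group. With each mouse's trend on length removed, an alternative chosen after seeing the data, median log2 fold changes of the 45 genes were -0.26, -0.14 and 0.09, and 42, 35 and 13 of them were below 0. The lower level in *db/db* than in *db/m* mice thus kept its sign at a smaller size.

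**Figure D5:**
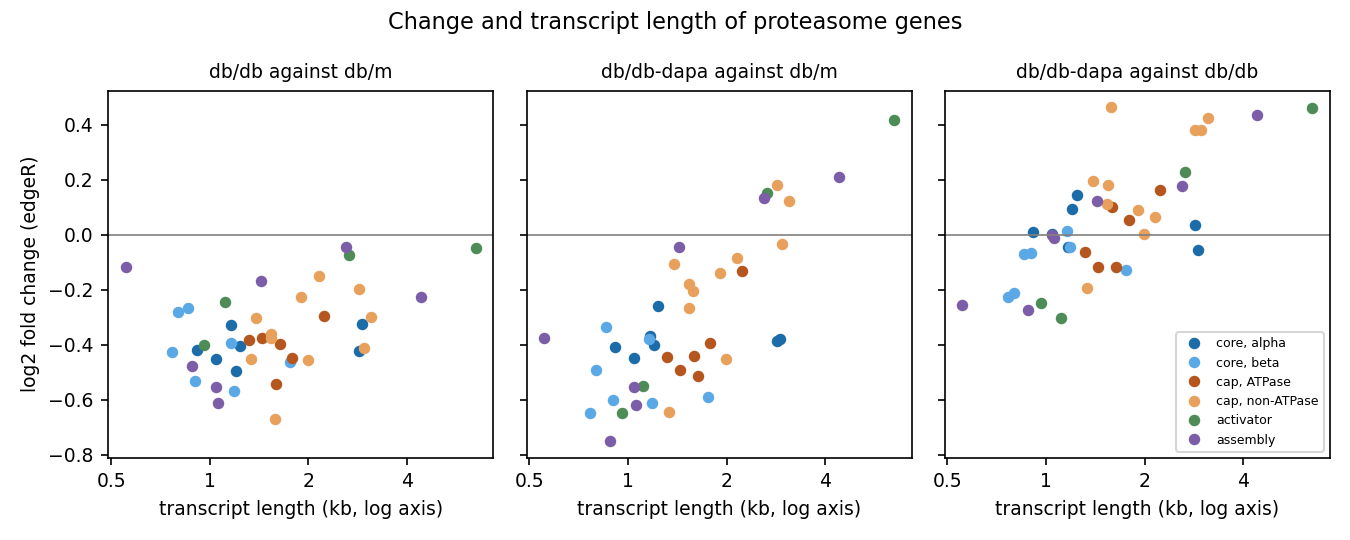
Log2 fold change (edgeR) against transcript length in kb (log axis) for the 42 genes, colored by class, in each comparison. Spearman's rho is 0.33, 0.66 and 0.69 from left to right. Long transcripts such as those of Psme4 and Psmd5 lie at the top of the middle and right panels.

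The remaining members were rare or of another function. Psma8, the alpha subunit of testis, was not tested, with a count of 1 in *db/m* mouse 1 and in *db/db*-dapa mouse 3 and of 0 elsewhere. A count of 0 allows up to 3 counts, which is 0.339 CPM in the deepest and 1.02 CPM in the shallowest library, for counting error only. Psmb11, the beta subunit of thymic epithelium, had counts of 2, 3 and 3 in *db/m*, 0, 0 and 1 in *db/db* and 1, 0 and 4 in *db/db*-dapa mice, too few for a fold. Psme2b had counts between 0 and 5, and reads shared with Psme2 make it uncertain. Psmc3ip, a partner in meiotic recombination named after Psmc3, was at 5.98, 4.89 and 5.33 CPM in *db/m*, 6.46, 5.60 and 3.66 in *db/db* and 5.39, 2.10 and 2.04 in *db/db*-dapa mice. The groups overlapped, with the lowest adjusted p of 0.338 in *db/db*-dapa against *db/m* mice (edgeR).

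Other genes of the pathway, 29 from a list of ubiquitin genes, shuttle factors, further cap and assembly factors and regulators, were also not called in any comparison (0 of 29 by edgeR, with 2, 6 and 3 at an unadjusted p under 0.05, or 6.9, 20.7 and 10.3% of the list against 13.7, 18.2 and 5.19% of all genes). Their median log2 fold changes were -0.21, 0.04 and 0.12. Nfe2l1, the regulator named above, was at 97.2, 109.9 and 96.4 CPM in *db/m*, 115, 83.8 and 106 in *db/db* and 114, 119 and 100.4 in *db/db*-dapa mice, and the groups overlapped, with log2 fold changes of 0.00 ± 0.17 and 0.13 ± 0.17 against *db/m*. Nfe2l2, its relative in the response to oxidants, was at 0.06 ± 0.16 and 0.04 ± 0.16. Pomp, the chaperone that places the beta subunits, was at -0.40 ± 0.23 and -0.58 ± 0.22, close to the beta subunits themselves, and the ubiquitin receptor Adrm1 at -0.36 ± 0.16 and -0.24 ± 0.16. The deubiquitinase Usp14 was at -0.23 ± 0.19 and 0.03 ± 0.18, and the ubiquitin gene Ubb at -0.34 ± 0.20 and -0.36 ± 0.20. None of these passed the test. The immunoproteasome subunits Psmb8, Psmb9 and Psmb10, which replace the catalytic beta subunits and are abundant in immune cells, had median log2 fold changes of -1.18 in untreated and -1.95 in treated *db/db* mice against *db/m*, from mean levels of 4.85 to 13.3 CPM in *db/m* mice. Adjusted p-values were 0.347 to 0.550 and 0.112 to 0.249 (edgeR). Untreated *db/db* mice overlapped *db/m* mice in all 3 genes, and treated mice did in Psmb9. In each gene *db/m* mouse 1 was the highest mouse. Counts of Psmb9 were 54, 13 and 17 in *db/m*, 10, 15 and 3 in *db/db* and 16, 2 and 11 in *db/db*-dapa mice. Of the 5 immune markers, only Cd74 was also below 0 in untreated *db/db* mice, at -0.56, while all 5 were in treated mice. Cd3e, with at most 4 counts in any mouse, had too few for a fold. The other 4 ran from -0.95 for Cd74 to -0.01 for Lyz2. The part of immune cells in this difference was not tested.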

How the data were processed

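The authors isolated RNA from sorted cells, prepared stranded mRNA libraries, read them from 1 end and mapped the reads to mm10 (per the submitters' processing notes with TopHat2 2.0.13, Bowtie2 2.2.3, SAMtools 0.1.19 and Cufflinks 2.2.1). The deposited table is named as FPKM but holds 1 estimated count per gene and mouse: 85.9% of values above 0 are whole numbers and columns sum to library totals. How these counts were made, and whether strand was used, is not given in the sources used here, so genes with near-identical copies are uncertain. The values were rounded and tested with edgeR 4.0.16 (quasi-likelihood, earlier form, TMM scaling) in R 4.3.3, all 9 mice in 1 fit, with p-values adjusted over the 15583 genes at 0.3 CPM or more in at least 2 mice. The design had foreseen counts or FPKM. SE is the log2 fold change divided by the square root of the F value. Calls needed both an adjusted p below 0.1 and a log2 fold change beyond 1 in either direction. The test was checked on simulated data. Groups came from sample labels.

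Members and gene lists were chosen with earlier results of these data known. Named genes were set by rule: in each class and comparison the highest and lowest log2 fold change, the 3 lowest p, members not tested or of another role, and the highest and lowest level per length. Psmb5, Psmb6, Psmb7 and Psmd14 were added for their function, Psmd1 and Psme3 after their values had been seen, and Psmd12 for its motif. Lengths and coordinates are those of the principal transcript and gene in GENCODE M21 (GRCm38), and promoters are RefSeq's. Alternatives were other scalings and filters, DESeq2 1.42.0, limma 3.58.1 on log2(CPM + 1), limma-voom with a weight per mouse, leaving out each mouse, fitting 2 groups only, a replicate block and, added after seeing the data, a length offset.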

Additional observations from a re-analysis of the deposited data

How the results depend on the processing

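The counts of called members were 0 in every comparison under all alternatives, except that limma-voom with a weight per mouse called 2 in *db/db*-dapa against *db/m* mice (with 1619 of all genes called). At an adjusted p under 0.1 with no fold threshold, limma-voom placed 1, 27 and 6 members (2.82, 31.3 and 5.77% of all genes) and DESeq2 3, 6 and 0 (5.11, 6.39 and 0.135%) in *db/db* against *db/m*, *db/db*-dapa against *db/m* and treated against untreated *db/db* mice. Without *db/db* mouse 3 these were 1, 7 and 2 (1.94, 10.6 and 2.69%), the last being Psmd5 and Psme4, whose log2 fold changes were then 0.70 and 0.86. With only 2 groups in the fit, 7 members (9.57% of all genes) were under 0.1 in *db/db*-dapa against *db/m* mice, and with at least 10 counts in 3 mice Psmd7 was (2.85%) in *db/db* against *db/m*. The causes were not tested.

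Leaving out 1 mouse at a time, the median log2 fold change of the members ran from -0.50 (without *db/db* mouse 2) to -0.31 in *db/db* against *db/m*, from -0.46 to -0.31 in *db/db*-dapa against *db/m* and from -0.034 (without *db/db* mouse 3) to 0.13 (without *db/db* mouse 2) in treated against untreated *db/db* mice. The length offset moved these medians to -0.26, -0.14 and 0.09. Scaling by library totals moved the median of all genes from 0.02 to 0.13 in *db/db* against *db/m* mice. The members were then at -0.27, with 40 of 45 below 0.

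Of the named genes, some near 0 changed sign, none of them called in either setting. Psmd9 in *db/db* against *db/m* mice was at 0.0675 with library totals and 0.0859 with limma-voom, and ran from -0.18 to 0.19 leaving out a mouse. Psme4 there was at 0.0564 with library totals and ran from -0.44 to 0.13. In treated against untreated *db/db* mice, Psmb7 was at -0.0475 with library totals and -0.0505 with limma-voom and ran from -0.034 to 0.10, Psma2 from -0.19 to 0.12, Psmb3 from -0.37 to 0.031 and Psmg3 from -0.56 to 0.0076. To look for pairing, mice were correlated over all genes tested by log2(CPM + 1) minus the mean of the gene in its group. These are correlations of deviations, not of levels. Those between same-numbered mice of different groups ran from -0.32 to 0.56, and those between differently numbered mice from -0.61 to 0.36. Whether replicate numbers pair the mice was not tested. With a replicate block the medians were -0.38, -0.39 and 0.01, 0 members were called and 9 rather than 16 members had an unadjusted p under 0.05 in *db/db* against *db/m* mice. The share of all genes at that p was not computed with the block.

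With 3 mice a group, the common biological coefficient of variation was 0.259. Psma8 was not tested, and the fits of Psmb11 and Psme2b, with at most 5 counts in any mouse, enter the counts and medians of the 45 genes but are given no fold. Only transcript levels were measured, not subunits or activity.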
